A study of Mus musculus with 12 samples.

Results

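Adult intestinal stem cells carried 2247 stretches of chromatin that were called for H3K27me3 in both of their libraries and in no library of the other populations studied. These ISC-only stretches were short, covering 6.70 Mb in all with a median length of 2.2 kb, and lay on all 19 autosomes and on neither sex chromosome. Most adjoined chromatin marked elsewhere: 1499 of them (66.7%) directly touched an island of another population, most often of enterocytes. Over the stretches, the median fold over control of the islands that held them was 1.58 in replicate 1 and 1.37 in replicate 2. The stretches were chosen by where the authors called islands in the 8 lists, so their presence in stem cells and absence elsewhere is the rule itself and not a result. The whole series held 29391 separate stretches called in at least 1 list, and 6073 stretches were called in both stem cell lists whatever the others held. Counted in windows of 200 bp, the ISC-only set was 33514 of 1860461 windows called anywhere, or 1.8%. Its size changed with the extent of the stem cell lists, which covered 241 Mb in replicate 1 and 60.8 Mb in replicate 2. With replicate 1 trimmed to the extent of replicate 2, a setting added after the data were seen, 1.19 Mb in 545 stretches was left.

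H3K27me3 is the trimethylation of lysine 27 on histone H3, placed by Polycomb repressive complex 2 and read by Polycomb repressive complex 1. It typically covers silent developmental genes in broad domains, and it can spread outward from the sites where the complex is recruited. In the intestine, Lgr5-positive stem cells at the crypt base divide continually and give rise to the absorptive enterocytes of the villus. Polycomb activity in this epithelium is known for keeping cell cycle inhibitors and genes of other lineages silent.

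Chromatin immunoprecipitation with an H3K27me3 antibody was followed by sequencing (ChIP-seq) in 4 populations, all from small intestine of mice of mixed C57BL/6 CD1 background. Embryonic epithelium was taken on the embryonic days named E12.5 and E14.5 and sorted on EpCAM. Adult stem cells (ISC) were sorted for high GFP from the Lgr5 reporter, and adult enterocytes (AE) on EpCAM. Both adult populations came from males at postnatal day 60 that carry the Lgr5EGFP-Cre-ERT allele, in which GFP and Cre-ERT are driven by Lgr5. The labels name no induction of Cre and do not say whether animals were pooled. Staining for CD31 and CD45 served to leave out endothelial and blood cells. The gate given for enterocytes names no marker beyond EpCAM, and identity could not be checked against marker genes, because the lists hold no gene names. Each population gave 2 ChIP libraries, which the design text calls biological duplicates, and each has 1 input control. The 2 ISC lists differed greatly in extent. Replicate 1 held 17407 islands over 241 Mb with 6627853 ChIP reads inside them, and replicate 2 held 6668 islands over 60.8 Mb with 1493464 reads. The lists of the other populations covered 62.5 to 109 Mb. Islands with identical borders in both ISC lists numbered 17, and their control reads were equal in all 17, so both lists share a control. Against that control the replicate 1 library was 1.09 times the size of replicate 2, so the 3.97-fold difference in covered length was not matched by a like difference in library size.

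The length covered in both ISC lists at once was 49.8 Mb, of which the ISC-only stretches made up 13.5%. The remainder was shared to every degree. A further 6.95 Mb (13.9%) was covered by exactly 1 list of another population and thus lay just outside the rule, while 11.0 Mb (22.1%) was covered by all 6. The stretches just outside belonged mainly to enterocytes: the only other list was AE replicate 1 over 2.31 Mb, AE replicate 2 over 2.29 Mb and E14.5 replicate 2 over 1.19 Mb. E12.5 replicate 2 was the only other list over 0.497 Mb, E12.5 replicate 1 over 0.335 Mb and E14.5 replicate 1 over 0.327 Mb. Fold over control, as deposited, divides an island's ChIP reads by its control reads and by the relative size of the libraries. Where folds of the 2 ISC lists are set side by side, they describe those libraries and their islands, which differ in length. Taken over windows, the median fold of the ISC islands was lowest where no other list covered the window, at 1.51 in replicate 1 and 1.34 in replicate 2. It was 1.65 and 1.37 with 1 other list, and 2.55 and 1.73 where all 6 covered it. In both lists it was higher at every further list. Island length followed the same order, from a median of 15.6 kb (replicate 1) and 8.2 kb (replicate 2) over ISC-only windows to 40.0 and 16.6 kb over windows shared by all lists. A part of island length in the order of the folds was not tested. Control reads per kb changed little, from 20.8 and 20.4 per kb over ISC-only windows to 21.5 and 21.9 per kb over those shared by all.

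**Figure D1:**
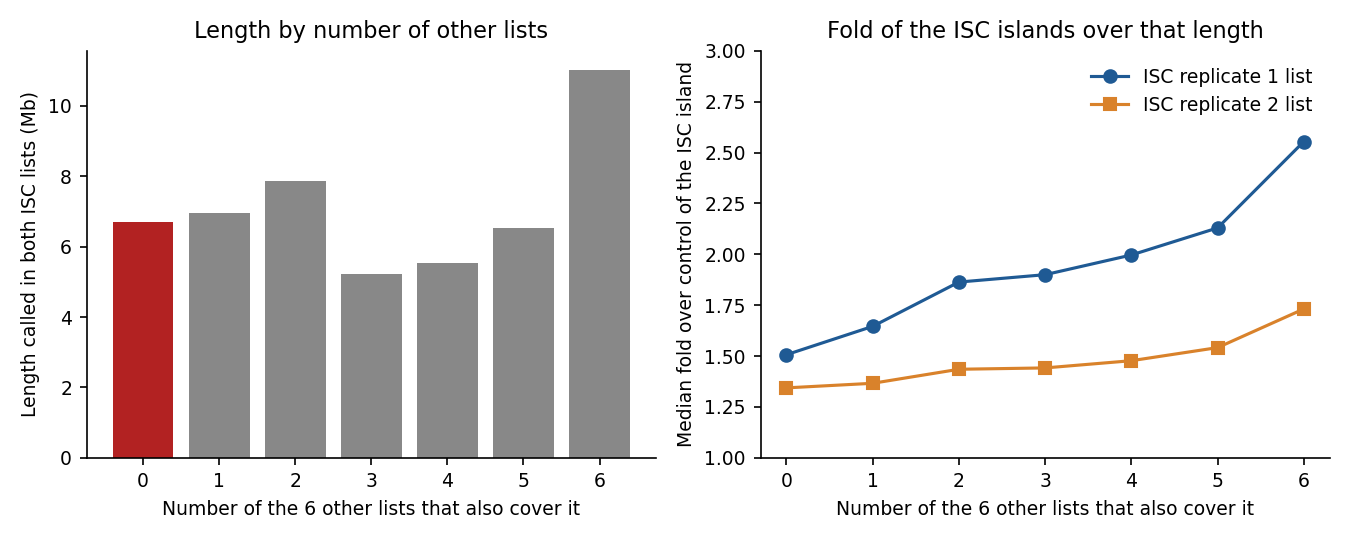
Left, length covered in both ISC lists (Mb) by how many of the 6 other lists cover it too, with the ISC-only length of 6.70 Mb as the leftmost bar. Right, median fold over control of the ISC islands over the same windows for each ISC list, which is lowest at 0 other lists and highest at 6.

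Individual stretches ran from 200 bp, the size of 1 window, to 18.6 kb. The quartiles were 1.0 and 4.6 kb. Stretches of a single window numbered 197 (8.77%), and 547 (24.3%) were shorter than 1 kb but held only 3.66% of the length. The 500 stretches of 5 kb or more held 51.7% of the length, and 31 stretches reached 10 kb. Short and long stretches differed in their surroundings. Of those under 1 kb, 89.8% touched an island of another list, against 22.6% of those of 10 kb or more. The islands that held them also differed, with a median replicate 1 fold of 1.72 for stretches under 1 kb and 1.39 for those of 10 kb or more. In replicate 2 the corresponding medians were 1.40 and 1.27. The longest ISC-only stretches thus lay in islands of lower median fold in both lists. Those islands were also longer, with medians of 23.4 kb in replicate 1 and 12.6 kb in replicate 2. For stretches under 1 kb the medians were 14.6 and 8.2 kb.

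The position of a stretch relative to other lists was read from its distance to the nearest island and from what lay at each end. Stretches that touched another list had a median length of 1.4 kb and held 45.5% of the length, and those that touched none had a median of 4.8 kb. A total of 319 stretches (1.62 Mb, 24.2% of the length) lay at least 10 kb from every island of the 6 other lists, and 12 lay 100 kb or more away. Of the 4494 ends, 1709 (38.0%) fell where an island of another list began while both ISC islands went on. At 1827 ends (40.7%) the replicate 2 island stopped and replicate 1 went on, at 846 (18.8%) the reverse held, and at 91 both stopped together. Another list bounded 1 end of 1268 stretches and both ends of 231, so the latter filled a gap between islands of other lists and made up 5.96% of the length. The shorter of the ISC lists set more of the borders than any other kind of end.

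**Figure D2:**
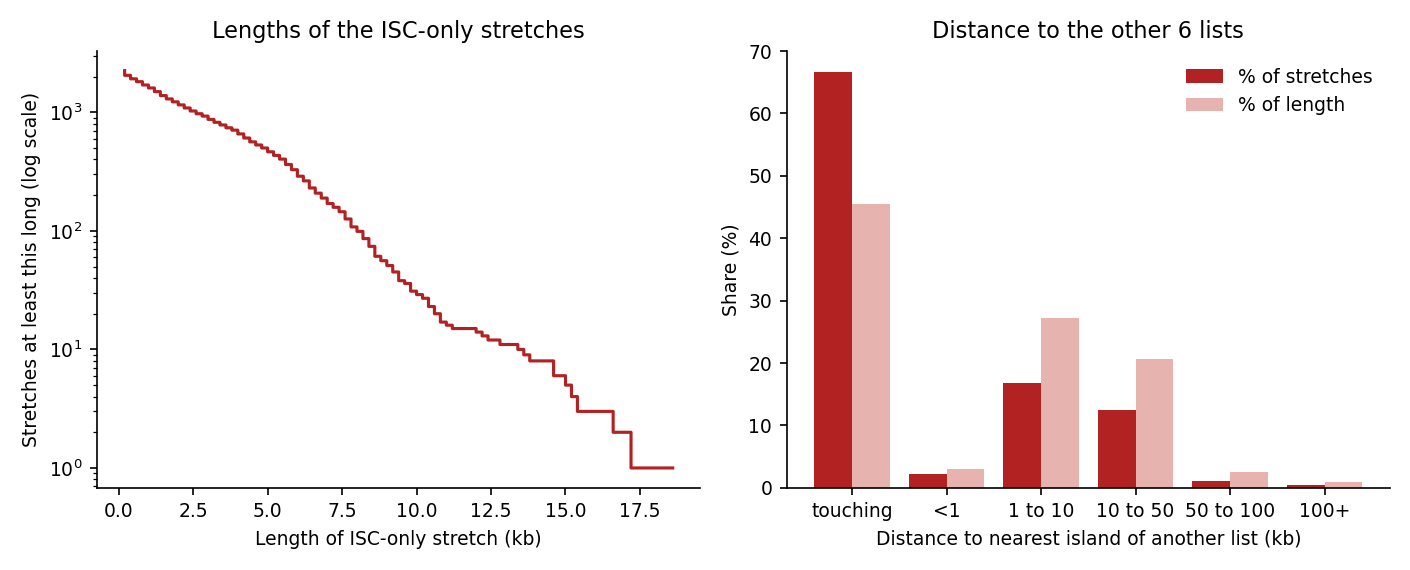
Left, number of ISC-only stretches at least as long as the length on the x axis (kb, log count). Right, share of stretches and of their length (%) by distance to the nearest island of any of the 6 other lists, with 66.7% of stretches but 45.5% of length touching one.

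Enterocyte islands were the usual neighbours. Islands of either AE list touched 954 stretches (42.5%), islands of either E14.5 list 439 (19.5%) and islands of either E12.5 list 262 (11.7%). The union of the AE lists covered 127 Mb, that of the E14.5 lists 128 Mb and that of the E12.5 lists 115 Mb. The lists overlapped ISC islands to unlike degrees, however. Of all length in both ISC lists, the AE lists covered 63.7% and 64.1%, and the E14.5 lists 52.1% and 60.9%. The E12.5 lists covered 33.1% and 45.6%. The AE lists thus came first over ISC islands in general, and not only beside these stretches. The median distance was 1.2 kb to the nearest AE island, 13.6 kb to the nearest E14.5 island and 13.4 kb to the nearest E12.5 island. AE alone was touched by 836 stretches, embryonic lists alone by 545 and both by 118. Among single lists, AE replicate 2 touched 533 stretches, AE replicate 1 touched 500 and E12.5 replicate 1 the fewest, 70. Of the 1499 touching stretches, 1260 touched 1 list and 239 touched 2 or more. Touching requires a border exactly at the end of the stretch, so these counts do not show whether the neighbouring islands were shared. At chr5:102100001-102102600, for example, an E14.5 island touched the stretch, and AE and E12.5 islands began 0.2 and 0.4 kb away. No test of this order was made, because the rule that chose the stretches uses all 6 lists.

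A total of 1966 replicate 1 islands (11.3% of that list) and 1998 replicate 2 islands (30.0%) held the stretches. Holding islands of replicate 1 had a median of 367.5 ChIP reads and 297.5 control reads over 14.4 kb, or 25.4 and 20.7 reads per kb, with a fold of 1.58 (quartiles 1.41 and 1.83). Other islands of that list had a median length of 10.0 kb and a median fold of 1.45. Holding islands of replicate 2 had a median of 157 ChIP and 155.5 control reads over 7.8 kb, or 20.5 and 20.4 reads per kb, with a fold of 1.38 (quartiles 1.29 and 1.52). The other replicate 2 islands had a median fold of 1.47. By median fold, the holding islands were thus above the rest in the long list and below the rest in the short one. The rule bears on this order, since each holding island must overlap the other ISC list and hold length called in no other population. In replicate 2, 4059 of the 4670 islands without a stretch overlapped another list. Islands of replicate 1 that overlapped another list and held no stretch had a median fold of 1.51, and those that overlapped none and held no stretch 1.36. Those with a stretch stood at 1.63 and 1.44. In replicate 2 the corresponding values were 1.49 and 1.39 without a stretch and 1.38 and 1.37 with one. A stretch occupied a median of 12.8% of its replicate 1 island and 26.7% of its replicate 2 island. It was the whole replicate 2 island in 275 cases and the whole replicate 1 island in 36. The replicate 2 island lay inside the replicate 1 island for 1135 stretches (50.5%), and the borders of the holding islands were identical for 3. Control reads above 2 times the list's median per kb were found in the holding islands of 4 stretches in replicate 1 (0.178% of stretches, against 0.236% of all islands of that list) and 5 in replicate 2 (0.223%, against 1.24%).

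The fold of the holding islands was higher in replicate 1 for 1779 of the 2247 stretches (79.2%). Over the stretches it ranged from 1.1 to 4.38 in replicate 1 and from 1.1 to 2.8 in replicate 2. The 2 lists ordered the stretches only loosely, with a Spearman rho of 0.370 and a Pearson r of 0.452 on log2 folds over 2247 stretches. These stretches are not independent, since many share an island and all share the control. Over all 6073 stretches called in both ISC lists, rho was 0.508. Stretches that touched another list had median folds of 1.66 and 1.38 in replicates 1 and 2, those up to 10 kb away 1.49 and 1.36, and those 10 kb or more away 1.42 and 1.36. A fold of 1.5 or more in both lists was reached by 459 stretches (20.4%), which together held 0.918 Mb (13.7% of the length), and a fold of 2 or more by 33. Of these 33, 31 touched another list and none lay 10 kb away. Counted by island, a fold of 1.5 or more was reached by 59.8% of holding islands in replicate 1 and 26.9% in replicate 2. Among all islands of those lists the shares were 44.2% and 39.9%. For a fold of 2 or more they were 14.4% and 2.25% of holding islands, against 11.0% and 5.38% of all islands.

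**Figure D3:**
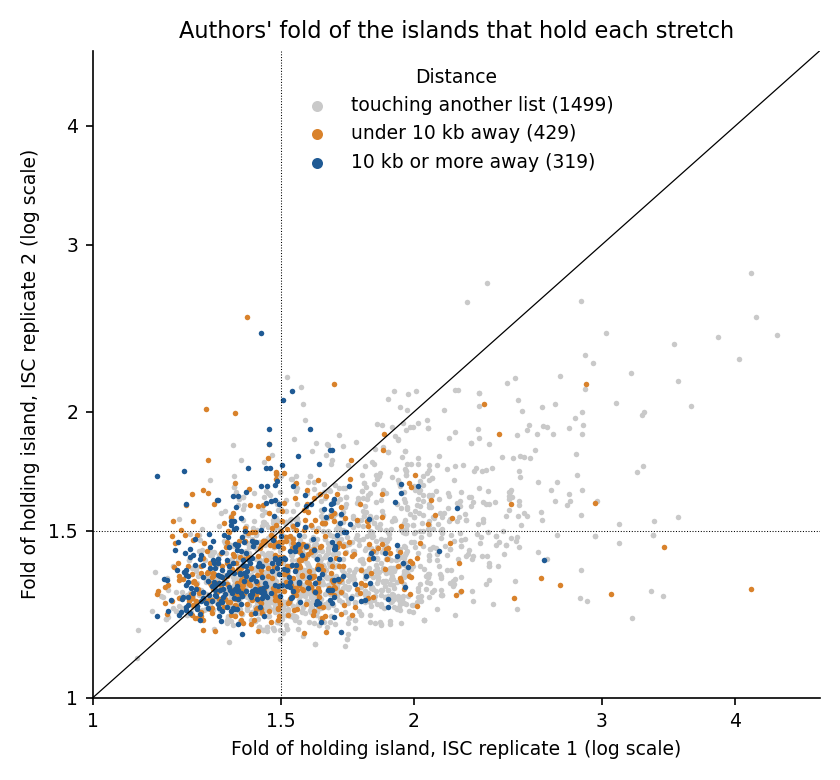
Authors' fold over control of the island that holds each ISC-only stretch in ISC replicate 1 (x axis) and replicate 2 (y axis), both on log scales, coloured by distance to the nearest island of another list; the solid line marks equal folds and the dotted lines a fold of 1.5. Most points lie below the line, and 459 lie beyond 1.5 in both lists.

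The highest folds belonged to short stretches beside islands of other lists. The 6 stretches whose lower fold was highest, singled out after the values were seen, were 0.2 to 2.6 kb long, and each touched an island of another list. The first, chr6:49179601-49180000, was 0.4 kb of a 25.2 kb replicate 1 island with 1321 ChIP and 407 control reads (fold 4.14). Its replicate 2 island of 18.2 kb held 596 and 295 reads (fold 2.8), and other lists covered 17.8 kb of it. At chr5:102100001-102102600 a replicate 1 island of 35.6 kb had a fold of 4.38 and a replicate 2 island of 32.0 kb one of 2.41, with the stretch at 2.6 kb. Such folds describe the whole island, and the lists give no reads for the ISC-only stretch on its own.

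For 444 stretches (19.8%, 2.31 Mb, 34.4% of the length) neither holding island overlapped any other list, so that the fold comes from islands called in ISC alone, and 299 of these lay 10 kb or more from other lists. They had a median length of 5.0 kb, median folds of 1.43 in replicate 1 and 1.36 in replicate 2, and took up a median of 83.6% of the replicate 2 island. Of the 444, 47 reached a fold of 1.5 in both lists, and 2 had a false discovery rate (FDR) of 1e-10 or less in both. The latter pair was named after the values were seen. At chr10:92957201-92965400 (8.2 kb) the replicate 1 island held 596 ChIP and 544 control reads over 27.6 kb (fold 1.40, FDR 1.56e-14). The replicate 2 island, which is the stretch itself, held 175 and 139 reads (fold 1.75, FDR 4.36e-11). The nearest other island was 24.8 kb away, in E12.5 replicate 2. At chr13:52405401-52409600 (4.2 kb) the replicate 1 island held 374 and 332 reads over 17.8 kb (fold 1.44, FDR 4.57e-11), and the replicate 2 island held 103 and 59 reads (fold 2.42, FDR 1.69e-14). Here the nearest island was 13.4 kb away, in AE replicate 2. In both places the short replicate 2 island had the higher fold and lay within a longer replicate 1 island of lower fold.

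The 10 longest stretches spanned 13.6 to 18.6 kb and lay in islands with folds of 1.37 to 1.62 in replicate 1 and 1.15 to 1.38 in replicate 2. The longest, chr12:86871201-86889800, held most of a 19.4 kb replicate 2 island with 362 ChIP and 416 control reads (fold 1.21, FDR 0.000478). In replicate 1 it lay in a 44.2 kb island with 1076 and 998 reads (fold 1.38, FDR 7.39e-23), other lists covered 17.6 kb of that island, and AE replicate 2 began 2.6 kb away. The stretch ended where the replicate 2 island ended, while the replicate 1 island went on. Next came chr5:113060001-113077200 (17.2 kb), which touched E12.5 replicate 2 at one end and had folds of 1.43 (615 and 548 reads) and 1.19 (443 and 518 reads). The strongest of the 10 in both lists was chr6:87465001-87481600 (16.6 kb). Its replicate 1 island of 35.8 kb held 988 and 776 reads (fold 1.62, FDR 1.34e-44), and its replicate 2 island held 348 and 350 reads (fold 1.38, FDR 2.72e-08) and coincided with the stretch. AE replicate 2 lay 1.0 kb from it and the embryonic lists 8.6 kb or more. A pair on chromosome 4, chr4:57038801-57054200 (15.4 kb) and chr4:57057601-57072200 (14.6 kb), shared 1 replicate 1 island of 40.2 kb with 943 and 880 reads (fold 1.37). Their separate replicate 2 islands held 286 and 332 reads (fold 1.2) and 304 and 332 reads (fold 1.27). No other list overlapped any of these 3 islands, so the whole of them was called in ISC alone.

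The remaining 5 of the longest stretches were of both kinds. chr16:95759401-95774600 (15.2 kb; folds 1.46 and 1.32) and chr19:6564601-6579200 (14.6 kb; folds 1.5 and 1.15) each touched E14.5 replicate 2 at one end. chr4:107404201-107418000 (13.8 kb; folds 1.58 and 1.17) lay 2.0 kb from AE replicate 2. chr17:66636601-66650200 (13.6 kb; folds 1.39 and 1.29) lay 8.2 kb from E12.5 replicate 1, and neither of its ISC islands overlapped another list. chr9:42480601-42495600 (15.0 kb; folds 1.38 and 1.17) lay 15.8 kb from AE replicate 2 and 270.6 kb from the nearest E14.5 island. Its replicate 2 island held 311 ChIP and 370 control reads, with an FDR of 0.00594, close to the ceiling of 0.01 that the lists keep. Of the 10 stretches, 4 had a replicate 2 FDR between 0.001 and 0.01.

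Of the 319 stretches at 10 kb or more from any other island, 299 lay in ISC islands that overlapped no other list in either replicate. The 8 longest of these included the chromosome 4 pair and the chromosome 9 stretch above. The most remote was chr7:74074001-74087400 (13.4 kb), 82.0 kb from AE replicate 2, 142.4 kb from E12.5 and 365 kb from E14.5 islands. Its replicate 1 island held 399 ChIP and 353 control reads over 16.2 kb (fold 1.44, FDR 7.21e-12), and its replicate 2 island held 281 and 291 reads over 13.6 kb (fold 1.34, FDR 4.28e-06). The highest replicate 2 fold of the 8 was at chr2:61290801-61301200 (10.4 kb), with 326 and 247 reads in replicate 1 (fold 1.68, FDR 8.34e-18) and 203 and 174 reads in replicate 2 (fold 1.62, FDR 5.64e-10). This stretch lay 65.6 kb from the nearest island, in E14.5 replicate 1, and 96.6 kb from AE, and its control reads were low, at 16.3 and 16.7 per kb. The highest replicate 1 fold of the 8, 1.69, was at chr12:105668601-105679600 (11.0 kb), whose replicate 2 fold was 1.49, with E12.5, E14.5 and AE islands 14.4, 14.8 and 28.0 kb away. The others were chr12:8899601-8911800 (12.2 kb; folds 1.22 and 1.32) and chr9:97838401-97849200 (10.8 kb; folds 1.15 and 1.22), the first 32.6 kb and the second 74.6 kb from another list. The farthest stretch of all, singled out after the values were seen, was chr10:54607001-54608600. It was 957 kb from the nearest island, in E12.5 replicate 1, but was only 1.6 kb long and rested on 62 and 41 reads in replicate 1 (fold 1.93) and 72 and 69 in replicate 2 (fold 1.45).

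Among the 319 stretches at 10 kb or more, 30 had a fold of 1.5 or more in both lists, and together they measured 137.8 kb. After chr2:61290801-61301200 the longest of them, named after the values were seen, were chr12:73539001-73546400 (7.4 kb; folds 1.95 and 1.68) and chr2:172684001-172690800 (6.8 kb; folds 1.65 and 1.55). Next came chr4:57749001-57755400 (6.4 kb; folds 1.71 and 1.53) and chr5:5259801-5266200 (6.4 kb; folds 1.95 and 1.64). The last of these lay 54.0 kb from E12.5, 106.8 kb from AE and 629.4 kb from E14.5 islands. All 5 stretches were exactly the replicate 2 island, nested in a longer replicate 1 island of 8.4 to 15.2 kb.

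ISC-only stretches were unevenly spaced. Their spacing was not compared with that of any other set of stretches, so it is not shown to be particular to them. Joined wherever neighbours lay up to 50 kb apart, 1119 stretches (49.8%) fell into 440 clusters, 294 of them pairs and 23 with 5 or more members, and 1128 stretches stood alone. The median gap between neighbours on a chromosome was 225.5 kb. Of the 2228 gaps, 338 (15.2%) were 10 kb or less and 524 were 1 Mb or more. Some neighbours lay in the same called island: of the 2228 pairs of neighbours, 281 shared a replicate 1 island and 249 a replicate 2 island. Of the length between clustered neighbours, 50.6% was covered by another population's list and 25.5% by ISC replicate 1 without such a list. The other 23.9% was covered by neither of these, and it includes length called in ISC replicate 2 alone.

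The 6 clusters with the most ISC-only length showed both arrangements. The first, chr9:42480601-42730600, held 13 stretches and 45.6 kb of ISC-only length over 250.0 kb. ISC replicate 1 covered 91.6% of it and replicate 2 52.6%, against 18.5% and 37.8% in the AE lists, 3.6% and 2.0% in the E12.5 lists and 0% in both E14.5 lists. Its folds ran from 1.38 to 2.63 in replicate 1 and from 1.17 to 1.57 in replicate 2. The fourth, chr6:101116801-101337200 (8 stretches, 33.6 kb), was alike, with 63.1% and 44.6% in ISC, 16.6% and 25.5% in AE and 0% in all 4 embryonic lists. In both, the AE lists covered part of the span. In the second, chr2:75078601-75357400 (7 stretches, 41.2 kb over 278.8 kb), E14.5 lists covered 6.38% and 5.74% and AE replicate 2 6.46%. ISC replicate 2 covered 20.2% of it, and 7 of its islands there held a stretch. The third, chr9:45278201-45397400 (5 stretches, 34.2 kb), had 8.56% in E12.5 replicate 1 and 11.7% in AE replicate 2. The fifth, chr7:74074001-74161600 (4 stretches, 32.4 kb), and the sixth, the chromosome 4 pair, had no island of any other list inside them. Folds in the fifth were 1.38 to 1.44 in replicate 1 and 1.26 to 1.55 in replicate 2.

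**Figure D4:**
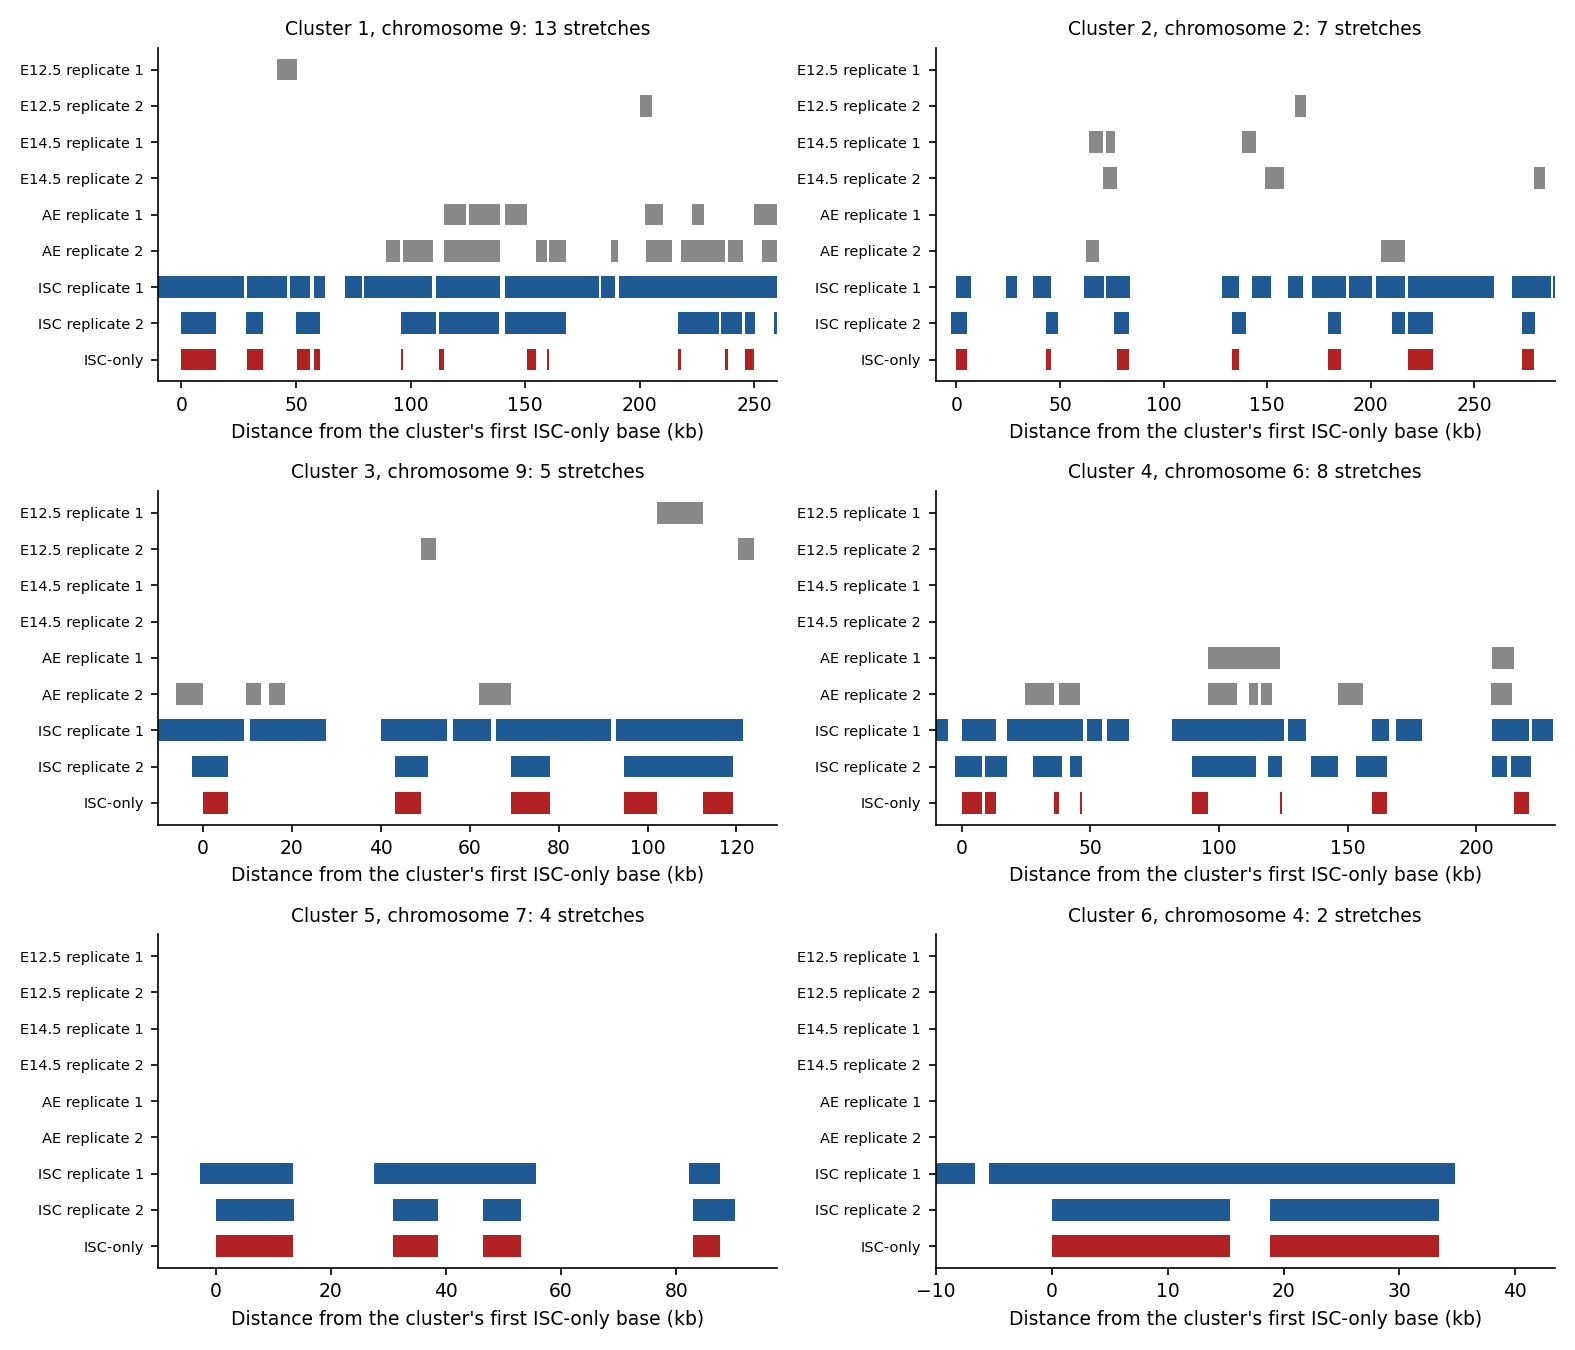
Islands of each list (grey for E12.5, E14.5 and AE, blue for ISC) and ISC-only stretches (red) over the 6 clusters with the most ISC-only length, drawn to scale as distance in kb from the first ISC-only base. Clusters 1 and 4 hold AE islands between the stretches, and clusters 5 and 6 hold no island of another population.

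All 19 autosomes held ISC-only stretches, from 37 on chromosome 16 to 215 on chromosome 2. As a share of the length that both ISC lists cover, they made up 8.17% on chromosome 15 and 9.57% on chromosome 11, the lowest, and 19.8% on chromosome 14 and 17.6% on chromosome 12, the highest, with a median of 13.9%. Chromosome X held none. The ISC lists covered 325 and 182.8 kb of X but shared only 27.2 kb, and another list covered all of that. Their X islands were of different kinds, with a median fold of 3.27 at 11.0 control reads per kb over 46 islands in replicate 1 and 1.32 at 66.2 control reads per kb over 26 islands in replicate 2. The absence from X therefore rests on very little shared length. Of the other populations, the same rule gave 203 stretches (0.581 Mb) on X at E14.5, 6 at E12.5 and 5 in AE. The adults were males and no sex is given here for the embryos, so sex and age cannot be told apart on X. ISC replicate 1 listed no island on chromosome Y, so no ISC-only stretch could arise there.

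Set beside the same rule for the other populations, the ISC-only set was the longest in the lists as deposited. Of the windows called anywhere, 1.8% were ISC-only, 1.48% E14.5-only (5.49 Mb, 2386 stretches), 0.484% AE-only (1.8 Mb, 842 stretches) and 0.401% E12.5-only (1.49 Mb, 527 stretches). As a share of the length covered in both lists of the population, this was 13.5% for ISC, 9.61% for E14.5, 4.09% for AE and 6.40% for E12.5. Stretches that touched another list made up 66.7% of the ISC set, 74.7% of the E14.5 set, 59.4% of the AE set and 40.6% of the E12.5 set. No test of these differences was made, since the rule uses every list and each population has 2. The ISC lists were the least alike in extent. Of the 13.8 Mb of replicate 2 that no other population covered, replicate 1 covered 48.5%, but of the 110 Mb of replicate 1 that no other population covered, replicate 2 covered 6.10%. In AE, where the lists are of like extent, replicate 1 covered 12.1% of such length of replicate 2, and replicate 2 covered 13.7% of that of replicate 1. At E14.5, replicate 1 covered 22.3% of such length of replicate 2, and replicate 2 covered 37.6% of that of replicate 1. The corresponding values at E12.5 were 7.99% and 5.77%. Over length that another population also covered, the replicates overlapped more in every population. There, ISC replicate 1 covered 91.9% of replicate 2, and ISC replicate 2 covered 32.8% of replicate 1. In the same order the shares were 55.4% and 63.0% in AE, 61.1% and 84.2% at E14.5, and 38.1% and 59.4% at E12.5.

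With every list brought to an equal covered length of 60.8 Mb, E14.5 had the longest set (4.66 Mb with islands taken by fold) and AE the second (4.04 Mb), ahead of ISC (2.41 Mb) and E12.5 (1.97 Mb). With islands taken by their excess of reads over expectation, ISC fell to 1.95 Mb, below E12.5 at 1.98 Mb. Among islands with a fold of 1.5 or more the values were 4.29 Mb for E14.5 and 2.34 Mb for ISC, and with an FDR of 1e-10 or less 4.34 and 0.831 Mb. Trimming ISC replicate 1 alone to the extent of replicate 2, an alternative added after the data were seen, left 1.19 Mb in 545 stretches. Without ISC replicate 1, replicate 2 alone gave 13.8 Mb, and without replicate 2, replicate 1 alone gave 110 Mb. Leaving out a list of another population kept the ISC-only length between 7.03 and 9.01 Mb, and lists of AE moved it most. The place of the ISC-only set among the populations thus changed with the setting of the lists. Of the 15 stretches named by length or by distance, 1 (chr2:61290801-61301200) was kept whole with a fold of 1.5 or more, and 1 (chr6:87465001-87481600) with lists of equal length taken by excess, and the other 14 were lost entirely in each. All 15 were lost with equal length taken by fold or with an FDR of 1e-10 or less. None of the 6 named clusters was kept whole with a fold of 1.5 or more, with either equal length or with ISC replicate 1 trimmed, and 3 of the 6 were lost entirely in each. With an FDR of 1e-10 or less, 4 of the 6 were lost entirely and none was kept whole.

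**Figure D5:**
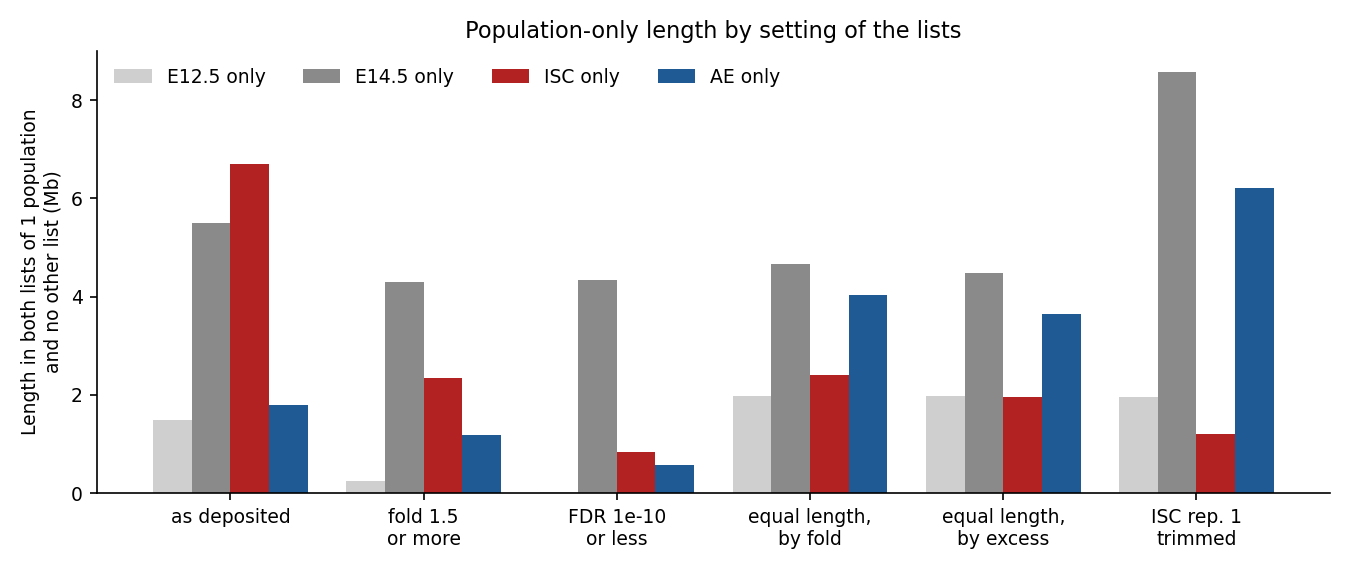
Length covered in both lists of 1 population and in no other list (Mb), for E12.5, E14.5, ISC and AE, with the lists as deposited and under 5 other settings of the lists. The ISC bar is the highest as deposited (6.70 Mb) and is below the E14.5 bar in each of the other 5 settings.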

How the data were processed

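Each of the 8 ChIP libraries was deposited as 1 list of enriched islands without a header. The submitters' processing notes name SICER 1.1, Bowtie 1.1.2, SAMtools 1.2, bcl2fastq 1.8.4 and the mm9 build. The columns were read from the values. Read counts per island, ChIP and control, were deposited as whole numbers. The authors' fold ratio sets ChIP against control after allowing for library size, and p-values and FDR (none over 0.01) are also the authors' own. Islands were called per library, and reads outside islands are unknown, so a window not called may still carry the mark, and no count test could be run.

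Using Python 3.11.15, numpy 2.4.6 and pandas 2.3.3, each list was marked in 200 bp windows, and the code was tested on simulated islands with known answers. Windows in both ISC lists and none of the other 6 were merged where adjacent. Coordinates are 1-based on mm9. Regions named were the 10 longest stretches, the 8 longest at least 10 kb from other islands and the 6 clusters with most ISC-only length. Others are marked where given. The members and these rules were chosen with earlier results of these data known. The gene tables at hand are on another build, so genes and sequences were not used here, and no statement on gene, exon or intron is made. All results are descriptions without a test. Excess was ChIP reads minus expected reads, over the square root of expected reads, where expected is ChIP reads divided by fold.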

Additional observations from a re-analysis of the deposited data

How the results depend on the processing

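A value is given here where it moved by over 1.5 times from 6.70 Mb, 2247 stretches, 13.5% of the length in both ISC lists, or 24.2% of ISC-only length at 10 kb or more from other lists. With a fold of 1.5 or more in all lists, the set was 2.34 Mb in 800 stretches. With an FDR of 1e-10 or less, it was 0.831 Mb in 282 stretches (4.70%). These settings also shorten the other lists, so length that was not ISC-only as deposited can enter. Of the ISC-only length as deposited they kept 13.7% and 4.32%, in that order. Equal covered length kept 19.5% of it by fold and 17.8% by excess. With a fold of 1.5 or more in the ISC lists alone, the values were 0.918 Mb, 459 stretches, 4.20% and 15.0%. At equal covered length they were 2.41 Mb, 936 stretches, 7.80% and 12.7% by fold, and 1.95 Mb, 667 stretches, 6.30% and 11.5% by excess. With the other lists widened by 5 kb on each side they were 3.17 Mb, 745 stretches, 6.36% and 51.2%. With ISC replicate 1 trimmed to the extent of replicate 2, added after the data were seen, they were 1.19 Mb, 545 stretches, 3.86% and 2.81%. Leaving out each of the 8 libraries in turn gave 7.03 to 109.8 Mb, 2324 to 18202 stretches, 14.1% to 45.5%, and 24.7% to 36.4%. The values beyond 1.5 times arose without ISC replicate 1 or 2, where 1 ISC list suffices. Widening by 1 kb, a minimum of 1 kb and leaving out ISC islands with over 3 times the median control reads kept all of these values within 1.5 times. Merging across 600 bp joined no stretches, so it tests nothing here. Some settings leave shorter lists, and the causes of the changes were not tested. No paired analysis was possible because the results come from no test.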
